A study of Mus musculus with 2 samples.

Results

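The genes described here encode the receptors by which bone-forming cells hold on to their matrix, to each other and to blood cells. They were 41 named mouse genes: 12 integrin alpha chains, 7 integrin beta chains, 9 adhesion molecules of the immunoglobulin type, 9 cadherins and 4 syndecans. Members were found as the probe sets that the array's annotation assigns to exactly 1 of these symbols. This gave 109 probe sets of 40 genes, out of 45037 probe sets and 18193 genes on the array; Itga11 had no probe set of its own and was not analysed here.

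Primary mouse osteoblasts at day 10 of differentiation, grown in beta-glycerophosphate (10 mM) with ascorbic acid (50 µg/ml), were kept without serum overnight. They were then given medium conditioned by MDA-PCa2b cells or by PC-3 cells for 6 hours. Both are established human prostate cancer lines derived from metastases to bone: lesions of MDA-PCa2b are known to form bone and those of PC-3 to destroy it. The design asks which transcripts of osteoblasts differ when factors released by one line replace those of the other. The growth medium was alpha-MEM to which fetal calf serum (10%) had been added. Growth, differentiation and serum starvation were shared by both groups, and cultures without tumour-cell medium were not analysed here. The labels used here do not give the strain, age or bone of the mice, nor whether animals were pooled. RNA of 1 culture per medium was hybridised to 1 Affymetrix array, so no SD, standard error or test between the media can be given. "Higher" and "lower" always refer to the PC-3 array compared with the MDA-PCa2b array.

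Integrins are paired alpha and beta chains that bind collagens, laminins, fibronectin and other matrix proteins, or adhesion molecules on other cells, and couple them to actin through talin, kindlin and vinculin. Cadherins bind cadherins of a neighbouring cell and are linked to actin by catenins. Osteoblasts are known to carry cadherin-11 and N-cadherin. Icam1 and Vcam1 encode ligands for the integrins of white blood cells and are known as targets of inflammatory signals. Syndecans carry heparan sulphate chains that bind growth factors, chemokines and matrix.

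Each value below is a probe set signal in MAS5 units, which can be compared between the arrays but not between genes. A signal under the median of all probe sets on its array (56.7 on the MDA-PCa2b array, 57.7 on the PC-3 array) was treated as being at a floor. The brightest probe set stands for its gene. Of the 40 genes, 27 were above the floor on both arrays, 1 on the MDA-PCa2b array only, 1 on the PC-3 array only and 11 on neither. Where a gene had several probe sets, their log2 ratios scattered about the gene's mean with an SD of 0.24 (4921 genes of the whole array); the SD was 0.29 for the dimmest genes by tertile and 0.19 for the brightest. This scatter is the only error that can be set beside a difference here. It covers disagreement between probe sets of a gene, not errors that all of them share. It says nothing of how cultures vary. The median log2 ratio over all 11335 measured genes was -0.04. The 18 probe sets for bacterial spike RNA had a median log2 ratio of 0.03.

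The label of the cells was checked on osteoblast markers: both arrays gave a signal above the floor for all 12 that had a named probe set, among them Sp7, Alpl, Ibsp and Col1a1. Markers of other cells were present as well. Of 14 macrophage and white blood cell markers 13 were above the floor on both arrays, and of 11 chondrocyte markers 10. Of 14 endothelial markers only Erg and Egfl7 were above it, and of 14 epithelial markers only Epcam was above it on both. In such bulk RNA, fewer cells of a type and less RNA per cell cannot be told apart.

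Few of the adhesion genes differed, and those that did went in opposite directions. Of the 29 measured genes, 3 were at least 2-fold higher with PC-3 medium: the syndecan gene Sdc4 and the integrin ligand genes Icam1 and Vcam1. The only gene at least 2-fold lower was Cdh2, which encodes N-cadherin. These shares, 10.3% higher and 3.45% lower, stand beside 2.12% and 1.85% of all measured genes. At 1.5-fold, 5 genes were higher (17.2%, against 5.59% of all genes) and 4 lower (13.8%, against 6.56%). Of the other 20, 19 lay within 1.5-fold, and Cdh4 has only a bound. The median log2 ratio of the 29 genes was -0.06, with 18 below 0 and 11 above. Of all 11335 measured genes 6304 were below 0 and 5031 above.

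**Figure D1:**
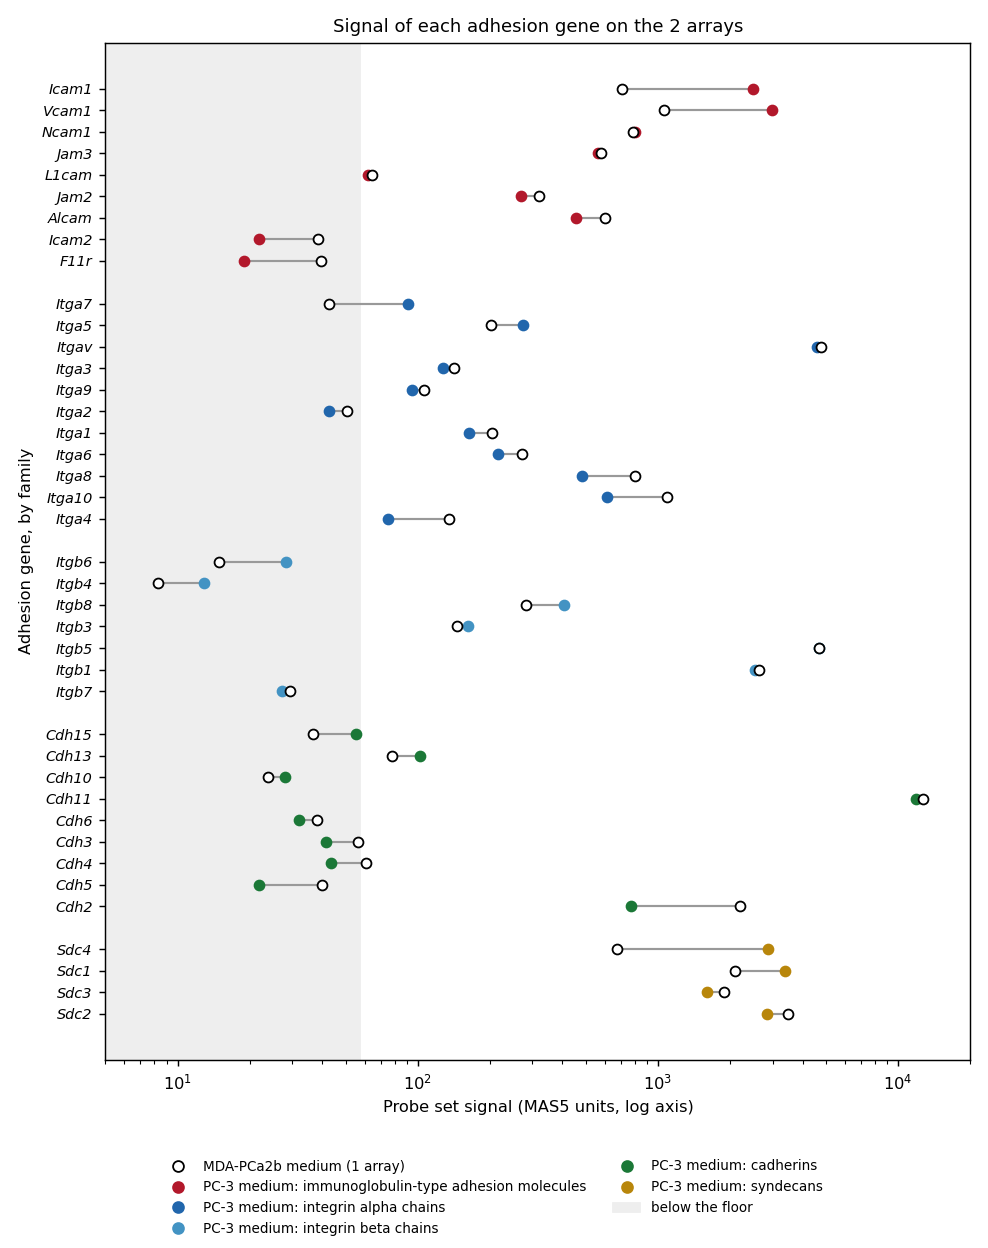
Signal of the probe set that stands for each of 40 adhesion genes (log axis, MAS5 units), open circles for MDA-PCa2b medium and filled circles for PC-3 medium, 1 array each. The long lines to the right belong to Icam1, Vcam1 and Sdc4 and the long line to the left, above the grey floor, to Cdh2 (2194 and 771); distances between genes have no meaning.

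Of the genes that were at least 2-fold different, the promoters of Icam1 and Sdc4 are shown first. These are the members with the largest positive ratios, and their windows can be compared base by base. RefSeq windows (GRCm38.p6, 250 bases before to 50 bases after the gene's start) were matched for 25 of the 41 genes by symbol. Vcam1 had no window, and no window is shown here for Cdh2. The Icam1 window is chr9:21015690-21015989 on the plus strand and the Sdc4 window chr2:164443139-164443438 on the minus strand. Capitals mark matches, on either strand, to the NF-kB kappa-B consensus, a relaxed kappa-B consensus whose first base is free, the AP-1 site TGANTCA, the STAT site TTCNNNGAA and the GC box GGGCGG.
Icam1: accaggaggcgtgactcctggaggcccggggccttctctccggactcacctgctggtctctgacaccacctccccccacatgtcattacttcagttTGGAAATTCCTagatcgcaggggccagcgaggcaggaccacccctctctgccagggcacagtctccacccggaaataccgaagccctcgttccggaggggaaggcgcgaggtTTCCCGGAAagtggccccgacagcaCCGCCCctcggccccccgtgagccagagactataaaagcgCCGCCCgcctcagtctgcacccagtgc
Sdc4: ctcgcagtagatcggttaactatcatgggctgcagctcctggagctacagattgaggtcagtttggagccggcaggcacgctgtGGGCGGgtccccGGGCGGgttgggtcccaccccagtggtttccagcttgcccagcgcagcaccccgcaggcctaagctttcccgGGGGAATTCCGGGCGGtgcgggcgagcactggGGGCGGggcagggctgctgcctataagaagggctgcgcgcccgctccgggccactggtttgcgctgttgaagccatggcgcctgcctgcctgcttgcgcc

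With the first transcribed base as 1, the kappa-B match of Sdc4, GGGGAATTCC, spans bases -82 to -73 and touches a GC box without sharing a base with it. The Icam1 window has no match to that consensus. It holds TGGAAATTCC at -154 to -145, which fits the relaxed form; this form was added after the window had been read. The Icam1 window also holds the STAT match TTCCCGGAA at -42 to -34. The kappa-B consensus occurs in 8.46% of all 32851 promoter windows, the relaxed form, which includes it, in 26.6%, the STAT site in 8.3%, the AP-1 site in 7.81% and the GC box in 35.7%. Of the 28 windows of adhesion genes 3 held the kappa-B consensus, those of Sdc4, Sdc1 and Itga3, and 13 the relaxed form. The GC box lay in 18 of the 28 windows and the AP-1 site in 3. Sdc4 and Sdc1 were higher with PC-3 medium, whereas Itga3 had a log2 ratio of -0.15. The relaxed form lay in windows of Icam1, Sdc4, Sdc1 and Itga5, which were higher, and of Itga4 and Itga10, which were lower. It also lay in windows of Itga3, Itgb1, Itgb5 and L1cam, which differed little, and of F11r, which was below the floor. The STAT site lay in 2 windows, those of Icam1, which was higher, and Itga10, which was lower. A match describes letters in a window and is not evidence of binding.

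The integrin ligand genes Icam1 and Vcam1 were higher with PC-3 medium. Icam1, which binds the leukocyte integrins that contain the beta 2 chain, had signals of 709 (MDA-PCa2b) and 2488 (PC-3). The Icam1 signal was 3.51-fold higher (log2 ratio 1.81), with a single probe set on the array, and only 62 of the 11335 measured genes had a higher ratio. Vcam1, the ligand of the integrin of the alpha 4 and beta 1 chains, was seen by 3 probe sets. Its signals were 1058 and 2982 by the brightest, 600 and 1759 by another, and 342 and 1022 by the dimmest. All 3 were higher with PC-3 medium, by log2 ratios between 1.49 and 1.58, so the probe sets of Vcam1 differed from each other far less than the media did. The brightest gave 2.82-fold.

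Macrophages and endothelial cells can also carry these ligands, so their markers were read beside them. The 14 macrophage and white blood cell markers had a summed signal of 18841 on the MDA-PCa2b array and 19782 on the PC-3 array, of which Lyz2 alone made up 9194 and 9416. Of the 13 measured ones 11 had a log2 ratio above 0, as had 5031 of all 11335 measured genes, and 2 were below. Their median was 0.20, beside -0.04 for all genes, and none of these markers differed 2-fold. The highest ratios among the markers were those of Fcgr1 (0.82), Cd68 (0.59) and Itgb2 (0.48), and the lower markers were Ptprc (-0.23) and Csf1r (-0.19). The part of these cells in the Icam1 and Vcam1 values was not tested. The 14 endothelial markers summed to 539 and 545, and the defining genes Pecam1, Cdh5, Kdr and Tek were below the floor on both arrays.

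The other members of the immunoglobulin type differed less or were lower. Alcam, which binds itself and CD6 on lymphocytes, had signals of 599 and 457 by the probe set that stands for it (log2 ratio -0.39). Its 3 other probe sets above the floor on both arrays gave -0.45, -0.73 and -0.82. Alcam was thus lower by every measured probe set, by an amount that depended on the probe set.

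Jam2, a junctional adhesion molecule gene, depended on the probe set far more. The probe set that stands for the gene had signals of 319 and 270 (log2 ratio -0.24). Another Jam2 probe set gave 260 and 110 (-1.25) and a dimmer one 147 and 66.1 (-1.15), both more than 2-fold lower. A further pair of probe sets was above the floor on the MDA-PCa2b array only. All 5 were lower with PC-3 medium, but the 2-fold difference was present by some and absent by the brightest. The related gene Jam3 had signals of 577 and 561 (-0.04).

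Ncam1, the neural cell adhesion molecule gene, had signals of 789 and 804, and its 5 probe sets above the floor on both arrays lay between -0.21 and 0.12. L1cam was close to the floor on both arrays (64.7 and 61.9). Icam2, known from endothelium, and F11r, a tight junction gene of epithelium and platelets, were below the floor on both arrays.

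**Figure D2:**
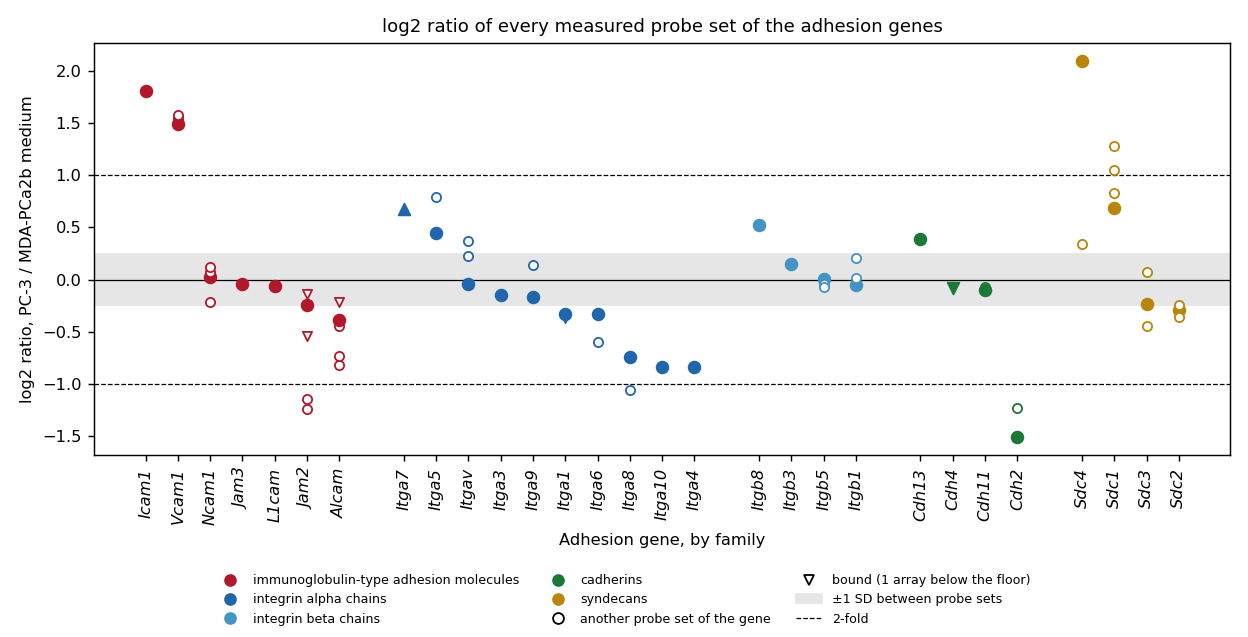
Log2 ratio of PC-3 over MDA-PCa2b medium for probe sets of the 29 measured adhesion genes. Probe sets below the floor on both arrays are not drawn. Filled symbols stand for the gene, open symbols are its other probe sets and triangles are bounds. The grey band is 1 SD between probe sets (0.24) and dashed lines mark 2-fold. Probe sets of Vcam1 and Cdh2 lie together outside the dashed lines, while those of Sdc4, Sdc1, Itga8 and Jam2 lie on both sides of one.

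Among the integrin alpha chains, which set what an integrin binds, none of the 9 above the floor on both arrays differed 2-fold by the probe set that stands for it; Itga7 has only a bound. Of the 10 measured alpha chains 8 had a log2 ratio below 0, as had 6304 of all 11335 measured genes, and the median was -0.25. The genes with the lowest ratios were Itga4, Itga10 and Itga8, receptors of different ligands. Itga4, the chain that binds Vcam1 and fibronectin, had signals of 135 and 75.2 (1.79-fold lower), both not far above the floor, and its 4 other probe sets were below the floor on both arrays. Of this pair of binding partners the ligand Vcam1 was thus higher with PC-3 medium and the Itga4 chain lower. Itga9, the relative of Itga4, had signals of 106 and 94.3 (-0.17), and a second probe set gave 0.14.

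The collagen receptor chain Itga10 had signals of 1090 and 611, which is 1.78-fold lower (log2 ratio -0.84, 1 probe set). It is known mainly from cartilage, and the chondrocyte markers, of which it is 1, summed to 16472 (MDA-PCa2b) and 15432 (PC-3). Of that list Hapln1 was lower by a like amount (364 and 204, -0.83) and Acan by less (-0.48), while Col2a1 (-0.10) and Col9a1 (-0.02) hardly differed and Col9a2 was higher (0.42). Of the 10 measured chondrocyte markers 6 had a ratio below 0 and 4 above, beside 6304 and 5031 of all 11335 measured genes. The part of cartilage cells in the Itga10 value was not tested. Itga1, another collagen receptor chain, had signals of 204 and 163 (-0.33). Itga2 was below the floor on both arrays.

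Among chains that recognise the RGD motif, Itga8 was lower and Itga5 was not. Itga8, whose ligand nephronectin is a bone matrix protein, had signals of 806 and 482, or 1.67-fold lower, and its second probe set gave 223 and 107 (log2 ratio -1.06). The nephronectin gene Npnt had a log2 ratio of -0.53. Itga5, the fibronectin receptor chain, had signals of 201 and 273 (0.44), and 63.1 and 109 by its second measured probe set (0.79). The vitronectin receptor chain Itgav had signals of 4759 and 4608 (-0.05), while its other probe sets gave 0.22 and 0.37. The sign for Itgav therefore depends on the probe set, and all its values are small.

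The laminin receptor chains differed by less than 1.5-fold by the probe set that stands for them, apart from Itga7. Itga6 gave 271 and 215 (-0.33) and, by its second probe set, -0.60. Itga3 gave 142 and 128 (-0.15). Itga7, a chain known from muscle, was below the floor on the MDA-PCa2b array and had a signal of 90.9 on the PC-3 array, so it was at least 1.60-fold higher (at least 2-fold, log2 ratio 1.08, under a floor at the 25th percentile). Of the 14 skeletal muscle markers, Itga7 among them, 1 exceeded the floor on the MDA-PCa2b array and 3 on the PC-3 array, with summed signals of 368 and 459; Myod1, Myog and Pax7 were below it on both. Their part in the Itga7 value was not tested.

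The beta chains, which carry the link to the cytoskeleton, were nearly level. Itgb1, the partner of most of the alpha chains above, had signals of 2627 and 2526 by its brightest probe set and 2545 and 2565 by another. Itgb5, which pairs with Itgav, had signals of 4674 and 4695, and its 4 probe sets lay between log2 ratios of -0.07 and 0.01. The sign of both genes changed with the probe sets used, but not with the scaling. Itgb3, the other well-known Itgav partner, gave 146 and 162 (0.15). Itgb8 had the largest ratio of the family, 282 and 406, or 1.44-fold higher by its single probe set. Itgb4, Itgb6 and Itgb7 were below the floor on both arrays.

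The cadherins split between a pair of genes that osteoblasts are known to carry. Cdh11, the osteoblast cadherin gene, had signals of 12647 and 11812 by its brightest probe set and 1312 and 1250 by the second, with log2 ratios of -0.10 and -0.07. Cdh2 had signals of 2194 and 771, or 2.84-fold lower (log2 ratio -1.51). Its second probe set gave 932 and 397 (-1.23). Both probe sets of Cdh2 were more than 2-fold lower with PC-3 medium, and only 58 of the measured genes had a lower ratio. All 12 measured osteoblast markers, Cdh11 among them, had a log2 ratio below 0, as had 6304 of all 11335 measured genes. Of these 12 markers 3 were at least 2-fold lower (Ifitm5, Dmp1 and Dlx5), beside 1.85% of all measured genes. Sp7 (-0.68) and Alpl (-0.41) were lower by less, whereas Col1a1 (-0.004), Sparc (-0.02) and Col1a2 (-0.02) were level. The median of the 12 was -0.23, beside -0.04 for all genes. The summed signal of these markers was 114266 and 103633. Sparc, Col1a2, Col1a1 and Ibsp made up 74.2% and 79.9% of that sum. The part of a change in these cells in the Cdh2 value was not tested.

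Of the remaining cadherins, Cdh13, the T-cadherin gene without a cytoplasmic part, had signals of 78.1 and 102 (0.39), and its 3 other probe sets were below the floor. Cdh4 exceeded the floor on the MDA-PCa2b array only, at 61.1, and its bound of -0.08 is uninformative. Cdh3, Cdh5, Cdh6, Cdh10 and Cdh15 were below the floor on both arrays. Together with the integrin and immunoglobulin-type genes named above, these are the 11 unmeasured members; their 19 probe sets had signals of up to 56.5 and up to 55.1 on the arrays in that order.

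All 4 syndecan genes were measured, and they divided evenly in direction. Sdc4, the syndecan of focal adhesions, had signals of 673 and 2875 by its brightest probe set, or 4.27-fold higher (log2 ratio 2.09), the largest ratio of all adhesion genes measured here. Only 42 of the measured genes had a higher ratio. The second Sdc4 probe set was dim and gave 78.2 and 99.2 (0.34), so the size of the difference rests on 1 probe set. Sdc1, the CD138 gene, was seen by 4 probe sets, with signals of 2099 and 3373 by the brightest (0.68). The others gave 467 and 833 (0.84), 1179 and 2447 (1.05) and 305 and 742 (1.28). Sdc1 was higher with PC-3 medium by all 4, by 1.61-fold for the brightest and by more for each of the others.

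Sdc2 and Sdc3 were lower by small amounts. Sdc2 had signals of 3472 and 2836, and its 3 probe sets above the floor lay between -0.36 and -0.25. Sdc3 had signals of 1881 and 1605 (-0.23), and its other probe sets gave 0.08 and -0.44. For Sdc3 the sign thus differed between probe sets, whereas for Sdc2 it did not. Other heparan sulphate carriers also went both ways: Gpc1 (-0.53), Gpc4 (-0.23) and Gpc6 (-0.17) were lower, and Gpc3 (0.77) and Tgfbr3 (1.48) higher.

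**Figure D3:**
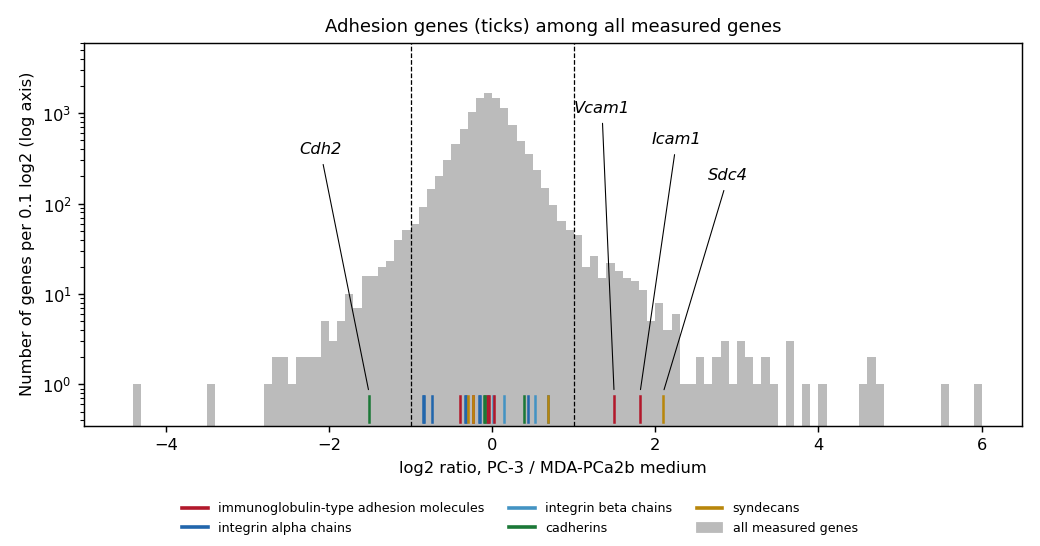
Number of genes at each log2 ratio of PC-3 over MDA-PCa2b medium (bars 0.1 wide, log axis) for 11335 measured genes, with the 29 adhesion genes as coloured ticks; dashed lines mark 2-fold. Most ticks lie near 0, Cdh2 lies in the left flank and Vcam1, Icam1 and Sdc4 in the right.

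Of the 17 members with several probe sets above the floor on both arrays, 11 had all of them on the same side of 0. The exceptions were Itga9, Itgav, Itgb1, Itgb5, Ncam1 and Sdc3, all with a ratio inside the scatter of 0.24 by the probe set that stands for them. Of the 59 member probe sets above the floor on both arrays, 33 were lower and 26 higher. The like count over all probe sets is not given here, but 6304 of all 11335 measured genes were below 0.

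The genes that link these receptors to the cytoskeleton differed little. None of 37 measured genes of the integrin linkers and focal adhesions was 2-fold different (1 was lower under a floor at the 25th percentile), and their median log2 ratio was 0.05. The largest differences were those of Vcl, the vinculin gene (6739 and 3838, -0.81), and Parvb, which encodes a parvin that joins the integrin-linked kinase to actin (121 and 199, 0.72). Of 18 measured genes of the cadherin linkers none passed 2-fold, bounds taken at their bound, and the median was -0.09; 2 were at least 2-fold lower under a floor at the 25th percentile. The catenin genes Ctnnb1 (-0.12), Ctnna1 (-0.10) and Ctnnd1 (0.18) were close to level beside the lower Cdh2. Their relatives Jup (227 and 153, -0.57) and Arvcf (140 and 212, 0.60) differed more, in opposite directions. The largest of this list were Nectin1, a nectin gene above the floor on the MDA-PCa2b array only (at least 1.76-fold lower), and Tjp1, the ZO-1 scaffold gene (1840 and 2812, 0.61).

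Of 33 measured matrix ligands of integrins, 2 were at least 2-fold higher and 2 lower, with a median of -0.004. Tgfbi, which encodes an integrin-binding matrix protein, had signals of 900 and 6423. Its 4 probe sets gave log2 ratios between 2.56 and 3.15. Thbs4, a thrombospondin gene, had signals of 155 and 372 (1.27). Lama2, a laminin alpha chain gene, was 2.42-fold lower (462 and 191) and Ccn1, a matricellular gene, 2.05-fold lower (2158 and 1053). The fibronectin gene Fn1 had signals of 16420 and 16958 (0.05).

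Of 33 measured other adhesion genes of the cell surface, 2 were at least 2-fold higher and 1 lower, with a median of -0.02. Cadm1, an immunoglobulin-type cell adhesion gene, had signals of 1655 and 487 (-1.77), and its other probe sets gave -1.60, -1.48 and -0.73. Tgfbr3, the betaglycan gene, had signals of 885 and 2468 (1.48) and 135 and 298 by its second probe set. Selp, the P-selectin gene, was above the floor on the PC-3 array only (119, at least 2.09-fold higher), by 1 of its 3 probe sets. A list of adhesion receptor genes of blood cells had 8 genes with a named probe set. Of these, Itgb2 (186 and 259, 0.48), Itgam (68.7 and 79.7, 0.21) and Itga2b (-0.06) were measured.

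**Figure D4:**
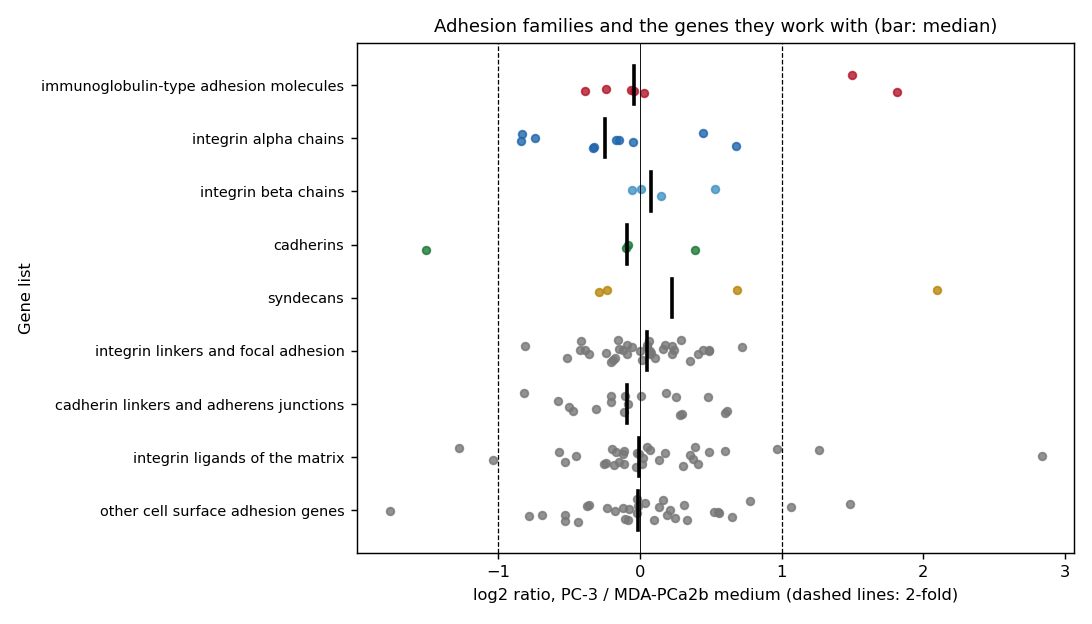
Log2 ratio of PC-3 over MDA-PCa2b medium for each measured gene of the 5 adhesion families (coloured) and of 4 lists of genes that work with them (grey), with the median of each as a black bar and dashed lines at 2-fold. No linker gene lies beyond a dashed line, bounds drawn at their bound, whereas the far points belong to Sdc4, Icam1, Vcam1, Cdh2, Tgfbi and Cadm1, among others.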

How the data were processed

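The authors deposited 1 intensity per probe set on a linear scale; the submitters' processing notes name GCOS 1.4 and MAS5. Detection calls and the scaling target are not given in the sources used here. Trimmed of 2% of probe sets at each end, the mean signal was 300.0 on each array, so both had been scaled alike. There were 0 unused columns of samples. Groups came from the source description; the title of the sample in PC-3 medium holds the letters MDA too. Of 45101 probe sets, 34958 had 1 gene in the platform annotation, 932 several and 9211 none listed; names were updated through Entrez identifiers (GRCm38.p6 table, names only).

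Each signal under its array's 50th percentile was raised to it before taking log2; a ratio with 1 array at the floor is a bound. A gene was represented by its brightest probe set (mean of both arrays). The number of arrays (1 per medium) limits the precision, and no test was possible. Values are given for members differing at least 1.5-fold, the 3 brightest of each family, bounds and their other probe sets; in other lists, for members differing 2-fold (at most 4), or the 2 largest. Other genes given with values were chosen after these were seen. The members and lists were chosen with earlier results of these data known. Scripts (Python 3.11.15, pandas 2.3.3) were tested on simulated data.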

Additional observations from a re-analysis of the deposited data

How the results depend on the processing

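Icam1, Vcam1 and Cdh2 kept their direction and their 2-fold difference under floors at the 25th or 75th percentile, log2(signal + 16) without a floor, quantile normalization, a median ratio set to 0, probe sets averaged, and probe sets shared between transcripts left out. Sdc4 kept its direction, but its log2 ratio was 1.22 with probe sets averaged and 0.34 without shared probe sets, which left 2 members 2-fold higher; the dim probe set alone gives the latter value. Averaging moved Jam2 to -0.88 and Sdc1 to 0.96. The lower floor raised the bound of Itga7 to 1.08, and Itga5 was 0.79 without shared probe sets. In all, 136 of 142 recomputed member ratios moved by less than the scatter between probe sets (0.24). Many of these had little or no room to move, so the share says little of robustness. A changed floor leaves ratios of signals above it untouched, and averaging does not alter a gene with 1 measured probe set. Setting the median to 0 shifts every ratio by the same small amount. Counts of 2-fold differences within the lists of partner genes, all of 5 or fewer, moved by over 1.5 times in 20 of 90 recomputations.

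Under the 25th-percentile floor 2 members were 2-fold lower, F11r being added, and 4 higher, Itga7 being added. The F11r call rests on a dim probe set (39.4 and 19.0), and its other probe set went the other way (8.41 and 42.4). Thresholds of 1.5-fold and 3-fold gave 5 and 2 members higher and 4 and 0 lower. The counts over all genes moved with the floor: 687 higher and 590 lower at the 25th percentile, 127 and 76 at the 75th, and 527 and 436 without a floor; thresholds of 1.5-fold and 3-fold gave 634 and 744, and 96 and 46. Under the 75th-percentile floor the alpha chain median was -0.74 over 3 genes and the cadherin median -0.80 over 2, since fewer genes were left. No gene of the blood cell receptor list was left. The median of matrix ligands was below 0 under 1 of 8 settings and that of other surface genes under 4. No paired analysis was possible because each medium had 1 array. Signals near the floor limit Itga4, Itga7, L1cam, Cdh4 and Cdh13.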
